A study of Mus musculus with 8 samples.

Results

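Selectin ligands are the sugar structures that let white blood cells catch on vessel walls, and 9 genes that build or carry them are described here among 36095 genes on the array. They were followed in plasmacytoid dendritic cells (pDC), the dendritic cells that make type I interferon, sorted by Sca-1, a surface protein encoded by Ly6a. All cells came from bone marrow of female BALB/c mice, cultured with mFlt3-L (Flt3 ligand), and the ages of the mice are not in the labels. The series held 4 Sca-1- and 4 Sca-1+ samples, numbered 1 to 4 in each group, on 8 single-colour arrays. The label text names a low-input amplification and labelling kit as well as SuperAmplified RNA, and how these relate is not stated there. Nothing in the labels ties the replicates to separate animals or cultures, so the p-values speak of the scatter among these 8 arrays, and that scatter may be technical. Fut7 was chosen by its Sca-1+ minus Sca-1- difference, the largest fall among genes detected on all arrays, and its values are therefore a description without a test. The other 8 members were picked by their role, with results of these arrays already known, and were read from probes named Fut4, Selplg, Gcnt1, St3gal4, St3gal6, B4galt1, Tpst1 and Tpst2.

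Selectins are lectins on endothelium, platelets and leukocytes that bind a fucosylated and sialylated sugar called sialyl Lewis x. The sugar is assembled on carrier proteins, of which PSGL-1, the product of Selplg, is the best known on leukocytes. Gcnt1 makes the branch on O-linked chains, B4galt1 adds galactose, St3gal4 and St3gal6 add sialic acid, and Fut7 and Fut4 add fucose as a last step. Fut7 acts on chains that already carry sialic acid. Tpst1 and Tpst2 add sulfate to tyrosines of PSGL-1, which strengthens its binding to P-selectin. In the body, pDC enter lymph nodes from the blood across specialised venules on which selectins take part.

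Each gene was measured by probes of 60 bases, and the 9 members had 14 probes, with more than 1 probe for 5 of them. The stretches below are the first 30 bases of the probes whose values matter most, as printed on the array (mouse build mm9). Fut7 is shown because both of its probes gave the same picture. Fut4 is shown because its probes ran apart, the dimmer one at signals near background. For Tpst1 the stretch covers bases 27 to 56, and the capitals mark AATAAA, the signal that precedes the end of many transcripts.

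Fut7, brighter probe, plus strand, chr2:25281802-25281861: gggttgtggaaggacagtgcagatgattct
Fut7, dimmer probe, plus strand, chr2:25281521-25281580: ttttcctgttcagtgagcaggaattcagga
Fut4, brighter probe, minus strand, chr9:14553224-14553283: atgttaatgagatattggccaggcgtctta
Fut4, dimmer probe, minus strand, chr9:14555189-14555248: acatcacctctttctgggatgagcaatggt
Tpst1, plus strand, chr5:130611539-130611598: tttatttttcaaAATAAAagcttaaatgtg

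The files place these probes in transcripts NM_013524 (Fut7), NM_010242 (Fut4) and NM_013837 (Tpst1), and whether they lie in coding or untranslated parts was not analysed here. AATAAA, searched on the printed strand only, occurred in 10.1% of all 55681 probes.

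A level below is the log2 processed signal of a probe minus the 75th percentile of its array, so levels of different probes cannot be set against each other. Values of a group are given in the order of replicates 1 to 4. A gene was tested if its brightest probe was well above background, by the scanner's mark, on 4 or more arrays. That held for 8 of the 9 members and for 19818 genes in all. Per array, 45.9% to 54.9% of spots passed that mark. Of 14 listed pDC markers, 14 were well above background on all 8 arrays. So were 3 of 8 B cell markers, with 3 on 0 arrays, and 4 of 11 T and NK cell markers, with 5 on 0 arrays. Cd79b, Cd3e and Nkg7 are among those detected on all arrays, and Ms4a1, Cd3d and Ncr1 among those on none. Ly6a, the gene behind the sort, was higher in Sca-1+ samples by 4.46 to 4.78 under the 20 alternative settings. At an adjusted p under 0.05 limma called 1.71% of all tested genes, 1.58% lower and 0.126% higher in Sca-1+ pDC. With the replicate number as a block it called 6.22%, 4.12% lower and 2.10% higher. Groups did not overlap for 6.95% of tested genes.

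Fut7 RNA was far lower in Sca-1+ pDC. Fut7 encodes the fucosyltransferase that finishes sialyl Lewis x in leukocytes. The processed signal of its brighter probe, in scanner units, was 4525, 2054, 2493 and 1926 in the Sca-1- sorts. In the Sca-1+ sorts it was 328, 385, 347 and 231. Each Sca-1- array was brighter than each Sca-1+ array before any scaling. As levels these were 4.28, 3.75, 3.58 and 2.15 in Sca-1- samples and 0.98, 1.00, 0.79 and -0.78 in Sca-1+ samples. The groups did not overlap, and replicate 4 had the lowest level in both.

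The Sca-1- sorts averaged a Fut7 level of 3.44 ± 0.91 (SD, n = 4). The Sca-1+ sorts averaged 0.50 ± 0.86 (SD, n = 4), a difference of -2.94 ± 0.54 (SE), or 7.69-fold. Within replicates 1 to 4 the difference was -3.30, -2.75, -2.79 and -2.93. These 4 values had an SD of 0.25, smaller than the SD of the levels within either group. Among 17676 tested genes well above background on all 8 arrays, Fut7 had the largest fall, and the next were the potassium channel gene Kcnk12 at -2.76 and Unc5b, a netrin receptor gene, at -2.76. That rank is what singled Fut7 out, and nothing is read from it. Over the 20 alternative settings the difference lay between -3.37, with Sca-1- replicate 4 left out, and -2.52, with its Sca-1+ partner left out.

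**Figure D1:**
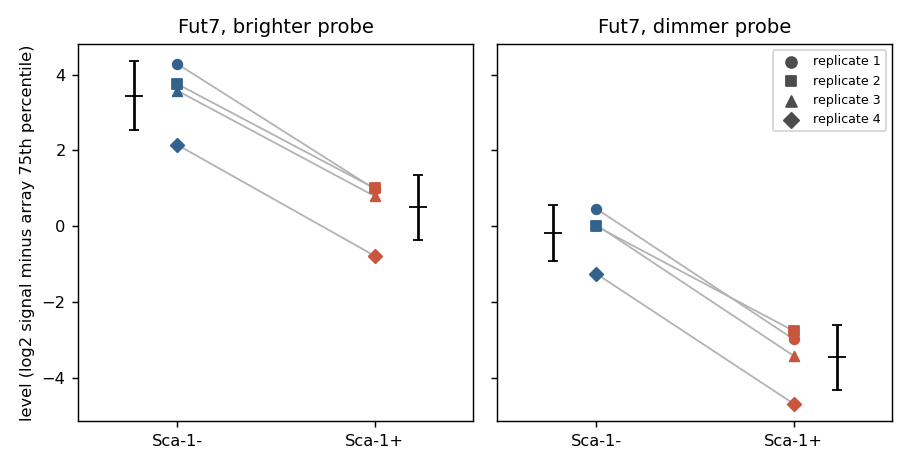
Levels of Fut7 in each sample (y axis, log2 signal minus the array's 75th percentile) from its brighter probe (left) and its dimmer probe (right). Symbols mark replicates 1 to 4, grey lines join samples of 1 replicate number, and black bars give the mean ± SD of 4 samples. All 4 lines fall from Sca-1- to Sca-1+ for both probes, and replicate 4 lies lowest in each group.

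The dimmer Fut7 probe gave the same pattern. Its processed signal was 321, 153, 215 and 183 in the Sca-1- sorts, and 21.1, 28.4, 18.8 and 15.4 in the Sca-1+ sorts. The scanner marked it above background on 4 of 4 Sca-1- arrays but 2 of 4 Sca-1+ arrays, so its fold rests partly on signals near background. The within-replicate differences were -3.45, -2.76, -3.46 and -3.43, with a mean of -3.27. Over the 8 samples the levels of both Fut7 probes correlated at r = 0.993, a description across samples that share the contrast. With normexp background correction, whose offset of 50 shrinks differences of dim probes, the dimmer probe gave -1.56 and the brighter one -2.75.

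In bulk samples fewer Fut7-expressing cells and less Fut7 RNA per cell cannot be told apart. Leukocytes other than pDC also express Fut7, so markers of such cells were read beside it. Of 12 neutrophil markers 8 were tested and 0 passed in limma (0 with an unadjusted p under 0.05). The log2 of their summed level was 7.12 to 8.25 in Sca-1- and 7.40 to 8.31 in Sca-1+ samples, but Csf3r, a cytokine receptor gene, held 93.8% to 98.3% of that sum, so it says little of the rest. The median difference of the 8 tested markers was -0.18. Of the 12 markers 7 were well above background on all 8 arrays, and 2, Cxcr2 and Retnlg, on 0 arrays. Prtn3, a neutrophil granule protease gene, differed by -0.74 and was called as lower with the replicate block (adjusted p = 0.0452), but not unpaired.

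Of 11 monocyte and macrophage markers 7 were tested and 1 passed. This was Cx3cr1, the fractalkine receptor gene, at -2.65 (adjusted p = 0.00503). With the replicate block Csf1r, the receptor gene for a macrophage growth factor, also fell (-1.19, adjusted p = 0.00637), and Ly6c1 rose (0.56, adjusted p = 0.0223). The log2 summed level of the monocyte list was 8.85 to 9.40 in Sca-1- and 9.18 to 9.83 in Sca-1+ samples. Ly6c1 held 80.7% to 92.9% of it, so the sum does not show the lower levels of Cx3cr1 and Csf1r. The median difference of the 7 tested markers was -0.08.

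For 9 basophil and mast cell markers, 6 of them tested with 0 called (0 at an unadjusted p under 0.05), the log2 summed level was 4.19, 2.44, 3.71 and -1.34 in the Sca-1- sorts and 4.53, 2.73, 3.29 and -1.54 in the Sca-1+ sorts. This list, like Fut7, was lowest in replicate 4 of both groups, but so were the summed pDC, monocyte and neutrophil lists. The groups overlapped for the basophil and mast cell list. Prss34 and Cpa3 were well above background on all 8 arrays, and Mcpt8, Hdc, Fcer1a and Gata2 on 4 to 7. Ms4a2, Cd200r3 and Il4 were so on 0 arrays. Eosinophil markers (2 of 5 tested, 0 called, 0 at an unadjusted p under 0.05) summed to -1.11 to 1.45 and -1.80 to 1.29. Of these, Ccr3 was well above background on 8 arrays, Prg2 on 5, Ear1 on 3, and Epx and Siglecf on 0. For T and NK cell markers (4 of 11 tested, 0 called, 0 at an unadjusted p under 0.05) the log2 summed level was 3.34 to 3.74 and 3.54 to 3.78. The summed lists of B cells (4 of 8 tested, 0 called, 0 at an unadjusted p under 0.05) and conventional DC (8 of 10 tested, 0 called, 2 at an unadjusted p under 0.05) reached 2.33 to 2.85 and 5.81 to 6.45 in Sca-1- samples, and 2.61 to 2.87 and 6.02 to 6.45 in Sca-1+ samples. Single genes held much of these sums too. Cd79b held 81.3% to 89.0% of the B cell sum, and Flt3 38.5% to 64.9% of the conventional DC sum. Nkg7 held 41.1% to 75.9% of the T and NK cell sum. Prss34 held 35.9% to 57.2% of the basophil and mast cell sum, and Prg2 1.52% to 90.7% of the eosinophil sum. With the replicate block 1 of the 8 tested conventional DC markers was called as lower, Zbtb46 (-1.20), and 3 as higher, Itgae (0.97), Sirpa (0.54) and Id2 (0.54). In that fit 4 of 14 pDC markers were higher, Irf7 (0.94), Lag3 (0.73), Tlr7 (0.58) and Ccr9 (0.55). Of all tested genes it called 4.12% lower and 2.10% higher. The part of other cells in the Fut7 difference was not tested.

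None of the 7 other tested members passed in limma, against 1.71% of all tested genes, and 1 of them, St3gal6, had an unadjusted p under 0.05. With the replicate block 1 of 7 passed, St3gal6 as higher, against 2.10% of all genes higher in that fit. For 0 of these 7 were the groups free of overlap, against 6.95% of all tested genes. Of the 8 tested members, Fut7 included, 4 had a negative difference, where 44.6% of all tested genes did.

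Fut4 encodes the other myeloid fucosyltransferase that can complete sialyl Lewis x. Its level was -0.48, -0.99, -1.05 and -0.17 in the Sca-1- sorts and -0.89, -0.60, -1.22 and -0.11 in the Sca-1+ sorts. The groups lay across each other, and replicate 4 was the highest in both. The difference was -0.03 (95% confidence interval -0.69 to 0.62, limma adjusted p = 1.00), and it took both signs within replicates, from -0.41 to 0.39. The dimmer Fut4 probe, well above background on 7 of 8 arrays, differed by 0.33 and was higher in Sca-1+ in 4 of 4 replicates, by 0.08 to 0.88. Its processed signals were only 7.73 to 24.1, and the lowest, in Sca-1- replicate 2, lies behind the 0.88. With normexp background correction that replicate gave 0.03 and the mean was 0.14. The interval of the brighter probe does not reach a fall of the size seen for Fut7.

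Selplg, the gene of the carrier protein PSGL-1, had close levels in both groups. They were 6.99, 7.06, 6.74 and 6.70 in the Sca-1- sorts and 6.93, 6.75, 6.70 and 6.63 in the Sca-1+ sorts. The Sca-1+ sample was the lower one in 4 of 4 replicates, but the groups overlapped. The difference was -0.12 (95% confidence interval -0.44 to 0.19, adjusted p = 1.00), and the other Selplg probe gave -0.15.

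Gcnt1 makes the branch that carries sialyl Lewis x on O-linked chains. Its level was 1.16, 1.09, 1.35 and 1.57 in the Sca-1- sorts and 1.12, 1.34, 1.45 and 1.69 in the Sca-1+ sorts. The groups overlapped, and the difference of 0.11 (95% confidence interval -0.28 to 0.50, adjusted p = 1.00) did not pass. The other Gcnt1 probe gave 0.06.

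B4galt1, which adds the galactose that receives sialic acid, had levels of 4.39, 4.36, 4.37 and 4.69 in the Sca-1- sorts and 4.46, 4.52, 4.53 and 4.71 in the Sca-1+ sorts. It was slightly higher in Sca-1+ in 4 of 4 replicates, by 0.03 to 0.16, and the groups overlapped through Sca-1- replicate 4. The difference was 0.10 (95% confidence interval -0.20 to 0.40, adjusted p = 1.00). Its other probe gave a mean difference of 0.02 with both signs. That probe was lowest in replicate 4 of both groups, at 0.51 and 0.46 against 1.43 to 1.71 elsewhere, whereas the brighter probe was highest there.

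The sialyltransferase members had differences of opposite sign. St3gal6 had levels of 2.07, 2.25, 2.09 and 3.02 in the Sca-1- sorts and 2.76, 3.03, 2.75 and 3.33 in the Sca-1+ sorts. Sca-1+ was higher in every one of the 4 replicates, and the groups overlapped because Sca-1- replicate 4 lay above Sca-1+ replicates 1 and 3. The difference was 0.61 ± 0.25 (SE), or 1.53-fold (95% confidence interval 0.05 to 1.17), with limma adjusted p = 0.478 unpaired and adjusted p = 0.0320 with the replicate block. Within replicates it was 0.69, 0.78, 0.66 and 0.31, smallest in replicate 4. Leaving out both samples of replicate 4 gave 0.71 (adjusted p = 0.0269, unpaired), where the 20 alternatives ranged from that value to 1.00.

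St3gal4 had levels of 1.36, 1.36, 1.25 and 1.56 in the Sca-1- sorts and 1.01, 1.07, 1.01 and 1.73 in the Sca-1+ sorts. Sca-1+ was lower in replicates 1 to 3 and higher in replicate 4. The difference of -0.18 (95% confidence interval -0.61 to 0.26, adjusted p = 1.00 unpaired and 0.383 with the block) did not pass. The difference between the responses of St3gal6 and St3gal4 was not tested.

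The tyrosine sulfotransferases were unlike in detection. Tpst2 was well above background on 8 of 8 arrays, with levels of 2.70, 2.83, 2.76 and 3.31 in the Sca-1- sorts and 2.77, 2.59, 2.85 and 3.55 in the Sca-1+ sorts. Its difference was 0.04 (95% confidence interval -0.50 to 0.59, adjusted p = 1.00), with both signs among replicates. Tpst1 was well above background on 0 of 8 arrays, with processed signals of 2.81 to 3.37, and was not tested. Its single probe holds 23.3% G and C, a share that 0.636% of all probes match or undercut. The Tpst2 probe also holds AATAAA. Of probes with AATAAA, 58.1% were well above background on 4 or more arrays, compared with 48.5% of all probes. Whether the base content or the motif bears on the low Tpst1 signal was not tested.

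**Figure D2:**
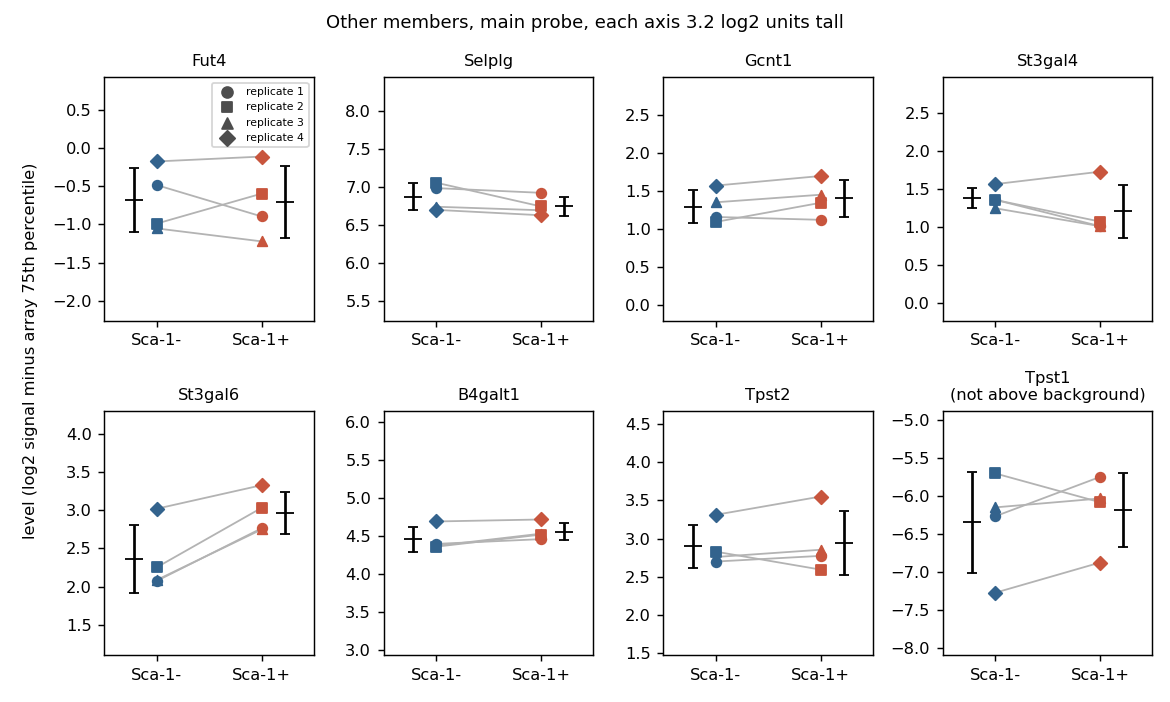
Levels of the other 8 members in each sample from the main probe (y axis, log2 signal minus the array's 75th percentile, each axis of the same height). Symbols mark replicates 1 to 4, lines join samples of 1 replicate number, and black bars give the mean ± SD of 4 samples. St3gal6 is higher in Sca-1+ along all 4 lines while its groups overlap, and Tpst1 is not above background on any array.

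The interval of each tested member other than Fut7 stayed inside -0.69 to 1.17 in the unpaired fit. With the replicate block that of St3gal6 was 0.36 to 0.87. No interval is given for Fut7, which was selected on this contrast.

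**Figure D3:**
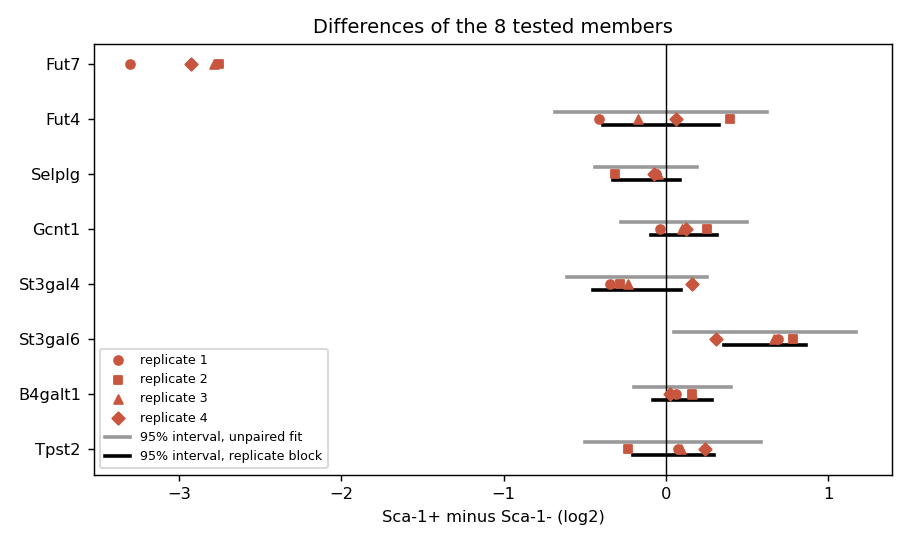
Sca-1+ minus Sca-1- differences (x axis, log2) of the 8 tested members. Red symbols are the differences within replicates 1 to 4, grey bars the 95% confidence interval of the unpaired limma fit and black bars that of the fit with the replicate block (not drawn for Fut7). Fut7 lies near -2.94 and the other 7 members lie between -0.41 and 0.78 in every replicate.

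Other genes of the route were taken from 7 lists with 102 genes, of which 76 were tested. Of these, 2 fell in Sca-1+ pDC and 0 rose, a share of 2.63% against 1.71% of all tested genes, and 9 had an unadjusted p under 0.05. With the replicate block 4 fell and 3 rose, 9.21% in all, against 6.22% of all tested genes in that fit. The median difference of the 76 was 0.04, beside 0.03 for all tested genes.

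The 2 genes called as lower unpaired were Galnt3 and B3gnt5, and no pattern in the route is read from them. Galnt3, one of the enzymes that start O-linked chains, had levels of 0.48, 0.22, 0.21 and 0.47 in the Sca-1- sorts and -0.95, -0.91, -1.12 and -0.33 in the Sca-1+ sorts. The groups did not overlap, and the difference was -1.17 ± 0.19 (SE), 2.25-fold (adjusted p = 0.0194). The other 12 tested genes of the O-glycan start and core list did not pass, and the list median was 0.01. Among them Gcnt2, another branching enzyme, differed by -1.11 (adjusted p = 0.280), and by -0.55 as the mean over its probes.

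B3gnt5, which starts lactosamine chains on glycolipids, fell by 1.87 on the log2 scale, 3.66-fold (SE 0.37, adjusted p = 0.0491). Its levels were -0.97, -1.85, -0.91 and -0.89 in the Sca-1- sorts and -3.66, -3.43, -2.95 and -2.08 in the Sca-1+ sorts, with 3 of 4 Sca-1+ arrays well above background. In the same list of 10 tested lactosamine genes B4galt4, a galactosyltransferase gene, was called as lower with the replicate block alone (-0.85, adjusted p = 0.00368 blocked and 0.505 unpaired). The list median was -0.05. The call of B3gnt5 ended with quantile normalization, in the deposited value table, when dim probes were kept, and on leaving out any 1 sample but Sca-1+ replicate 4 (adjusted p = 0.0573 to 0.187 for these 7 samples). In all it ended in 13 of the 19 alternatives in which B3gnt5 was tested, at a limma adjusted p of up to 0.433. Normexp background correction kept the B3gnt5 call, at -0.82. The Galnt3 call ended when dim probes were kept and on leaving out any 1 sample of replicates 1 to 3 (adjusted p = 0.0570 to 0.0926 for these 6 samples), with the difference between -1.22 and -1.07. In all it ended in 10 of 20 alternatives, at a limma adjusted p of up to 0.287.

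None of the 15 tested sialic acid genes passed unpaired (1 at an unadjusted p under 0.05), with a median of 0.05. St6gal1, which adds sialic acid in the other linkage of lactosamine chains, differed by 1.14 ± 0.46 (SE), 2.20-fold, and passed as higher with the replicate block (adjusted p = 0.00606), but not unpaired (adjusted p = 0.491). Without both samples of replicate 4 it was 1.23 (adjusted p = 0.00434, unpaired), and over the 20 alternatives adjusted p reached 1.00. Within replicates 1 to 4 the St6gal1 difference was 1.23, 1.43, 1.05 and 0.85. St6galnac4, a sialyltransferase gene of short O-linked chains, also passed as higher with the block alone (0.48, adjusted p = 0.0290 blocked and 0.573 unpaired).

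Of 12 tested genes for fucose supply and for the other fucosyltransferases, 0 passed in either fit (0 at an unadjusted p under 0.05 unpaired, 1 with the block), and their differences lay between -0.17 and 0.22. The smallest p-values in that list were those of Gfus, which makes the activated fucose donor (-0.17, adjusted p = 0.866), and Fut10 (-0.16, adjusted p = 0.988). Fut1 and Fut9 were above background on 0 arrays.

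Among 11 tested selectins and carriers 0 passed unpaired (3 at an unadjusted p under 0.05). Cd24a, a sugar-rich surface protein that can carry P-selectin ligands, differed by -0.87 (adjusted p = 0.205) and was called as lower with the block (adjusted p = 0.0167). Glycam1, a mucin that carries selectin ligands, differed by 0.84 (adjusted p = 0.185) and was called as higher with the block (adjusted p = 0.0266). None of the 9 tested N-glycan genes (1 at an unadjusted p under 0.05 unpaired, 3 with the block) and none of the 6 tested sulfation genes (0 and 0) passed in either fit. Their smallest p-values were those of Man1a (0.42) and Man2a2 (0.20), and of Chst1 (0.20) and Papss2 (-0.46). The sulfotransferase genes Chst2, Chst4, Chst5 and Chst7 were above background on 0 arrays.

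**Figure D4:**
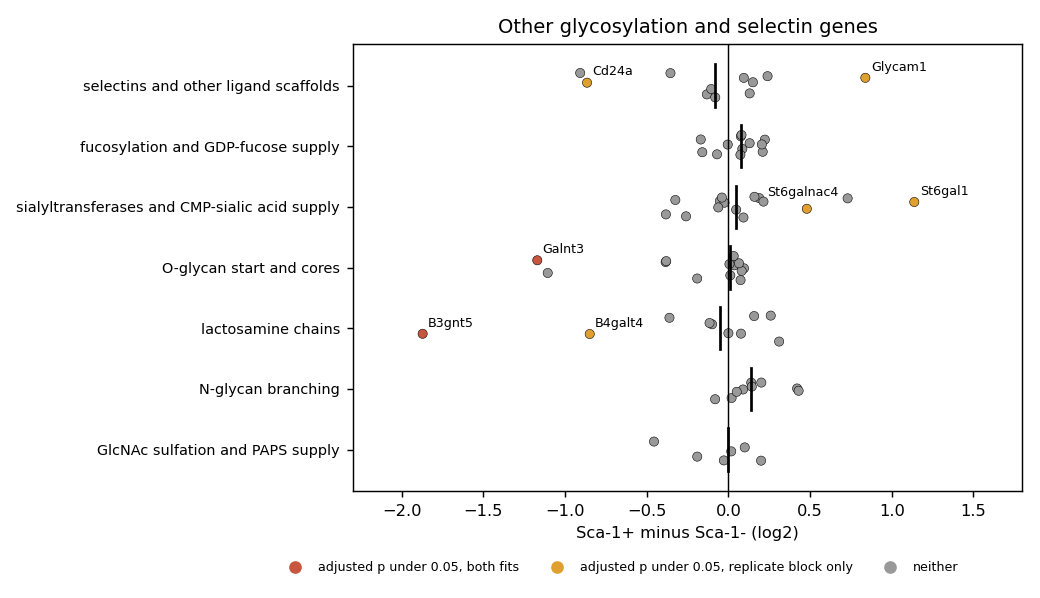
Sca-1+ minus Sca-1- differences (x axis, log2) of the 76 tested genes in 7 lists (y axis). Each point is a gene, black ticks are list medians, and colours mark genes with an adjusted p under 0.05 in both fits, with the replicate block alone, or in neither. Galnt3 and B3gnt5 are the points called in both fits.

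The genes whose level followed that of Fut7 most closely over the 8 samples, among 17675 others well above background on all arrays, were Cdt1, Cdca7, Epb41l4b, Bcl2 and Cenpw, with Pearson r between 0.987 and 0.992. Cdt1 is a replication licensing factor, Cenpw a kinetochore protein and Bcl2 a survival protein. The 8 points share 2 groups and 4 slides, so no p is given. After the group means were subtracted the r of these 5 genes lay between 0.953 and 0.977. By the same measure the other 8 members ran from -0.952 (Tpst2) to 0.870 (Tpst1, above background on 0 arrays). Replicate 4 had the lowest Fut7 level in both groups, and its share in these r was not tested. The Sca-1+ minus Sca-1- differences were -1.44 for Cdt1, -2.59 for Cdca7, -2.23 for Epb41l4b, -1.41 for Bcl2 and -1.70 for Cenpw. These 5 genes were picked by their r with Fut7, which was itself chosen on this contrast. Their r after subtraction and their differences follow in part from that choice and add no evidence.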

How the data were processed

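The 4 Sca-1- and 4 Sca-1+ samples were grouped and numbered by their titles. Per the file headers, the authors extracted spot intensity with Agilent Feature Extraction 10.7.3.1, background-corrected by that program, with marks for control, outlier and well-above-background spots among the other values deposited. A value table with log2 values was also deposited. Set against the scanner output, each column followed its own array (r of 0.998 to 1.00 with log2 signal). How it was normalized is not stated in the labels or headers.

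Control and outlier spots were left out, spots of a probe were averaged as log2, and each array's 75th percentile was subtracted. Members were found by gene name in the scanner files, and each gene was read from its brightest probe. No member value was missing. Two-sided unpaired tests came from limma 3.58.1 under R 4.3.3, fitted by lmFit and eBayes to 19818 genes, with Benjamini-Hochberg adjustment over all of them. In arrays simulated for this comparison (200 changed genes among 19818), 84% to 86% of changes of 2 log2 units and 44% to 60% of those of 1 were called, with 7 false calls. The simulated noise was independent for each gene and array, without the likeness of same-numbered samples, so these rates need not hold for the real arrays. The members, the lists and the rules were chosen with earlier results of these data known.

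Named genes are the members, list genes called in either fit, the 2 smallest p-values per list, and the 5 genes most like Fut7 with clone names passed over. Impad1, listed, had no feature of that name and was left out. Arrays of a replicate number shared a slide, with the Sca-1- sample always at position 1 and the Sca-1+ sample at position 2, so position and group cannot be told apart. After subtraction of group means, same-numbered samples correlated (0.44, 0.43, 0.64 and 0.89 for numbers 1 to 4, each over 0.1; up to 0.54 between samples of other numbers), with 6 of 8 samples closest to their own number, so the numbers were taken to pair the samples and the replicate block was printed where it changed a call. Both arrays of replicate 4 were extracted with another protocol version. Alternatives were normexp, quantile normalization, scaling on detected probes, filters, the replicate block, mean over probes, the value table and left-out samples. Figures used Python 3.11.15 and matplotlib 3.10.9.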

Additional observations from a re-analysis of the deposited data

Results flagged for a closer look

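In 46 groups of 4 samples (23 genes in both populations), 6 held a sample whose gap to its neighbour took a share of the group's range past Dixon's 95% critical value, where chance flags about 1 in 20 groups. Replicate 4 was that sample in 5 of them. In Sca-1+ replicate 4 the Fut7 level was -0.78, with the nearest at 0.79 (gap share 0.883), and St3gal4 was at 1.73 with the nearest at 1.07 (0.914). St6gal1 was at 3.06 there, next to 1.81 (0.948), and Papss2 at -2.80, next to -0.88 (0.897). B4galt1 in Sca-1- replicate 4 was at 4.69, next to 4.39 (0.890). B3gnt5 in Sca-1- replicate 2 was at -1.85, next to -0.97 (0.917). The arrays of replicate 4 had a 75th percentile of signal of 503 and 450, the others 171 to 262, and the cause of these gaps was not tested.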

How the results depend on the processing

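Each result was recomputed under 20 alternatives. The count of genes called, 339, was 182 without the filter on dim probes, 1233 with the replicate block, and 1 to 879 with samples left out. The count of the other members called, 0, was 1 with the replicate block and 0 to 1 with samples left out. Among list genes, 2 called, it was 7 with the replicate block, 1 with quantile normalization, with genes detected on all arrays or in the deposited value table, 0 without the filter, and 0 to 3 with samples left out. The Fut7 difference stayed between -3.37 and -2.52 in all 20, a move smaller than the SD of its levels within either group but larger, when either sample of replicate 4 or Sca-1- replicate 1 was left out, than the SD of 0.25 between replicates. Differences near 0 changed sign. Tpst2 was -0.0042 with normexp and -0.16 to 0.18 with samples left out, Fut4 was 0.15 as the mean over its probes and -0.23 to 0.14 with samples left out, and Papss2 was -0.67 to 0.044 with samples left out. The replicate block changed no call of a named gene other than those given beside their results. The number of arrays limits precision, and signals near background limit the dimmer probes of Fut7 and Fut4, B3gnt5 and Tpst1. Glycam1, Man1a and Chst1 were also dim, and with normexp their differences were 0.51, 0.20 and 0.12, against 0.84, 0.42 and 0.20. The causes of these shifts were not tested.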

Other observations

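The genes next to Fut7 in the RefSeq order (GRCm38.p6) were read after its values had been seen. Abca2, a lipid transporter gene and the next gene after Fut7, differed by 0.03 (95% confidence interval -0.90 to 0.96, limma adjusted p = 1.00), and Paxx, a DNA repair factor gene and the one after that, by 0.23 (adjusted p = 0.862). Npdc1, the gene before Fut7, was well above background on 1 of 8 arrays and Entpd2 on 0, so neither was tested.

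The probes of B4galt1 correlated at r = -0.883 over the 8 samples, a description that rests on replicate 4, where the brighter probe was highest and the other lowest in both groups. The probes of Fut4 also ran apart, at r = -0.474, with the dimmer one near background, while those of Fut7 correlated at 0.993.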
